A study of Mus musculus with 20 samples.

Results

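Solute carriers are the membrane proteins that move nutrients, ions and metabolites into cells, out of cells and between organelles, and their gene symbols begin with Slc and a family number. Transcripts of 165 such genes were followed in splenic follicular T cells. They were chosen by symbol and by being found, that is, having a value above 0, in 1% or more of all 28192 cells. These 165 genes are the members described here, out of 211 rows with such a symbol among the 13798 genes of the expression table. The members just inside the limit were *Slc25a23*, found in 1.05% of cells, and *Slc26a10*, in 1.10%, while *Slc46a1*, in 0.901%, and *Slc26a6*, in 0.795%, lay just outside it. Of the members, *Slc9a3r1* (a scaffold protein), *Slc4a1ap*, *Slc7a6os* and *Slc36a3os* bear such a symbol without coding for a carrier.

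The cells came from C57BL/6 bone marrow chimeras, in which irradiated congenic recipients had been given donor marrow. WT chimeras (n = 5) received WT marrow and NP-OVA in alum, a foreign antigen, at week 6 after irradiation, and 564Igi chimeras (n = 5) received WT marrow mixed with marrow from 564Igi mice, whose B cells carry knocked-in heavy and light chains of an autoreactive receptor, and no immunization is recorded for them. The labels place sacrifice at week 10 in both conditions, and the study's methods add a booster to the WT schedule. Genotype of the marrow, antigen and schedule therefore changed together and cannot be told apart. Both sexes were used. WT mice 11 and 12 were female and 14, 23 and 36 male. Of the 564Igi mice, 13, 21 and 34 were female and 17 and 24 male. The main comparison of conditions held no term for sex. CD45.2+ CD4+ T cells of the spleen bearing both CXCR5 and PD-1 were sorted, and each mouse gave 1 10x 5′ library. The authors' names for the 6 clusters are kept here, namely activated TFH (11953 cells), TFR (11650), Sostdc1 TFH (2803), central memory TFH (725), effector TFH (682) and interferon stimulated TFH (379). TFH cells help germinal center B cells, and TFR cells are their Foxp3-expressing regulatory counterparts.

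Libraries held 1121 to 4030 cells and 3424280 to 15241983 UMIs, and mouse 24 (564Igi) had the fewest of both. Mice 34 (564Igi) and 36 (WT) bear library numbers apart from the rest and had the highest mean heat shock scores of the cell table (0.115 and 0.0809). Libraries shared 491 cell barcodes, which belong to 988 cells. *Foxp3* was found in 56.0% of TFR, 26.3% of interferon stimulated and 7.20% of activated cells. *Sox4* was found in 66.9% of central memory cells, *Gzmk* in 83.1% of effector cells and *Ifit1* in 89.4% of interferon stimulated cells. The markers of activated cells did not single them out. *Tnfsf8* was found in 63.5% of activated and 76.99% of Sostdc1 cells, and in 16.8% to 45.9% of cells of the other clusters. *S100a6* was found in 76.3% of activated cells and in 22.8% to 74.7% of cells of the other clusters. Of TFR markers, *Ikzf2* was found in 90.4% of TFR and 62.4% of activated cells, and *Il2ra* in 11.8% and 2.33%. Of 7 B cell genes measured, 4 were found in under 1% of cells, as were 4 of 5 myeloid genes, all 4 red cell genes and both plasma cell genes. The exceptions were *Cst3* (45.9% of cells), *Cd22* (4.43%), *Cd79b* (3.56%) and *Fcmr* (2.95%), and *Cd8b1*, the 1 CD8 T cell gene measured, was found in 4.604% of cells. The part of such cells or of their free RNA in the results was not tested. Free RNA was not removed.

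T cells that divide in germinal centers draw on glucose, glutamine and other amino acids from outside. The authors left out cells with high S or G2/M phase scores, so the shares given here do not describe such cells. CD98, the product of *Slc3a2*, is the heavy chain that several Slc7 amino acid exchangers need to reach the cell surface, and MCT4, the product of *Slc16a3*, carries lactate out of glycolytic cells. The Slc25 family sits in the mitochondrial inner membrane and passes phosphate, ADP and ATP and organic acids across it, and the Slc28 and Slc29 families carry nucleosides.

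The promoters of 5 members are shown, namely 3 that were higher in TFR cells than in activated cells and the near-identical pair that was higher in central memory cells, because the values below turn on these genes. Each run holds 250 bases before to 50 bases after the RefSeq transcript start on GRCm38.p6, 5′ to 3′ on the gene's strand. Capitals mark matches, on either strand, to the hypoxia core ACGTG or to the GC box GGGCGG.
Slc7a10 (chr7:35186135-35186434, plus strand): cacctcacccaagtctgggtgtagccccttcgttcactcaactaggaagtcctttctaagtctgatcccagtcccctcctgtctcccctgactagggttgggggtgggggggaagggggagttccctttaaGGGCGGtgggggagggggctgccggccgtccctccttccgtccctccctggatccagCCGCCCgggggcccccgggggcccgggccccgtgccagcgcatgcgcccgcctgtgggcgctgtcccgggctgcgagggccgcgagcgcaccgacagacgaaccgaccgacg
Slc16a3 (chr11:120948817-120949116, plus strand): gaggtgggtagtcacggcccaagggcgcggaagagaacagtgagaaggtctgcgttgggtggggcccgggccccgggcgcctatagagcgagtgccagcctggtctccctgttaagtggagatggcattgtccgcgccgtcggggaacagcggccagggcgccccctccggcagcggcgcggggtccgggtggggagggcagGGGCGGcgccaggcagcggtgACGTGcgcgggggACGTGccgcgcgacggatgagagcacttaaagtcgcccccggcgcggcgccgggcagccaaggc
Slc3a2 (chr19:8713848-8714147, minus strand): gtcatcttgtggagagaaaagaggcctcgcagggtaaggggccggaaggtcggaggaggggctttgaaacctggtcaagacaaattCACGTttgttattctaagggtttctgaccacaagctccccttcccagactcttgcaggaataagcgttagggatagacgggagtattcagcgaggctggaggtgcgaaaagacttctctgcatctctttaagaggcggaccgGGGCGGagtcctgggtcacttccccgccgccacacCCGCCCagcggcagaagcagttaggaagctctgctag
Slc28a2 (chr2:122426185-122426484, plus strand): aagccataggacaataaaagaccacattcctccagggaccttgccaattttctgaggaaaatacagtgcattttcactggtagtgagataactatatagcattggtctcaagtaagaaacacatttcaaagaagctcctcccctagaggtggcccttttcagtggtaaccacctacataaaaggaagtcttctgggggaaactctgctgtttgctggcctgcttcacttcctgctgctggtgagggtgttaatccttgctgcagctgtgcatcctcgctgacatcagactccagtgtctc
Slc28a2b (chr2:122484691-122484990, plus strand): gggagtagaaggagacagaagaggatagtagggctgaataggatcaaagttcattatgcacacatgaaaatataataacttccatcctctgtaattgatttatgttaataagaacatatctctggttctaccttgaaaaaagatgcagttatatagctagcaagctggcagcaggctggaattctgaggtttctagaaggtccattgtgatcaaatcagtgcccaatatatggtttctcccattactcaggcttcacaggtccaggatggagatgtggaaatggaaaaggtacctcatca
The hypoxia core was present 2 times in the *Slc16a3* window and 1 time in that of *Slc3a2*, and 19.6% of the 32851 promoters of this length held it. The GC box was present in the windows of *Slc7a10*, *Slc16a3* and *Slc3a2*, and 35.7% of all promoters held it. A forkhead motif (GTAAACA, 3.65% of all promoters) and an amino acid response motif (TGATGNAA, 3.97%) were searched on both strands and matched in none of the 5 windows. *Slc28a2* and *Slc28a2b* are neighbours on chromosome 2 with transcripts that were 95.9% identical over 3749 bases, so reads could be split or misassigned between them. Their promoter windows, by contrast, matched at 146 of 278 aligned bases (52.5%). *Slc7a10* lies at chr7:35186385-35201114 and *Slc16a3* at chr11:120948480-120960868, both on the plus strand. *Slc3a2* lies at chr19:8706882-8723369 on the minus strand. The windows of *Slc16a3* and *Slc3a2* thus lie inside these gene spans, at starts downstream of the outermost annotated start.

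Mitochondrial carriers were the members found in the most cells. *Slc25a3*, the phosphate carrier of the inner membrane, was found in 81.7% of all cells, and *Slc25a5*, an exchanger of ADP and ATP, in 74.3%. The 36 members of family 25 ranged from 1.05% to 81.7% with a median of 6.41%, so the family held both the most widely found and some of the least found members. Their summed level was 19.5 ± 0.459 corrected counts per 10000 in WT chimeras and 19.7 ± 0.6004 in 564Igi chimeras (SD, n = 5 each). All members together summed to 56.9 ± 2.35 and 54.95 ± 4.0005 per 10000. These shares count transcripts caught at the 5′ end and are not divided by gene length. *Slc25a5* shares stretches of over 90% identity with 7 pseudogene or processed transcripts and *Slc25a3* with 1, so their counts may be split.

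Grouped by family number, the families of amino acid carriers held 21 members, found in 2.18% to 40.8% of cells. *Slc7a6os* and *Slc36a3os*, which code for no carrier, are counted among them. *Slc1a5*, which takes up glutamine in exchange for other neutral amino acids, was found in 40.8%, *Slc38a1*, which takes up glutamine with sodium, in 37.3%, and *Slc3a2* in 31.01%. *Slc7a5*, the CD98 partner for large neutral amino acids, was found in 3.05%. Of the 11 sugar carriers, *Slc50a1* was found in 47.0% of cells and *Slc2a1*, the glucose carrier GLUT1, in 11.4%. The 4 monocarboxylate carriers ranged from 2.02% for *Slc16a1* to 11.8% for *Slc16a3*. The scaffold gene *Slc9a3r1* was found in 58.9% of cells and *Slc9a9*, a sodium and proton exchanger of endosomes, in 37.3%. Zinc and other metal carriers numbered 20 and reached at most 17.3%, for *Slc39a7*, and the 20 members of the nucleotide sugar family 35 reached 21.2%, for *Slc35b1*. In all, 45 members were found in 10% or more of cells.

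**Figure D1:**
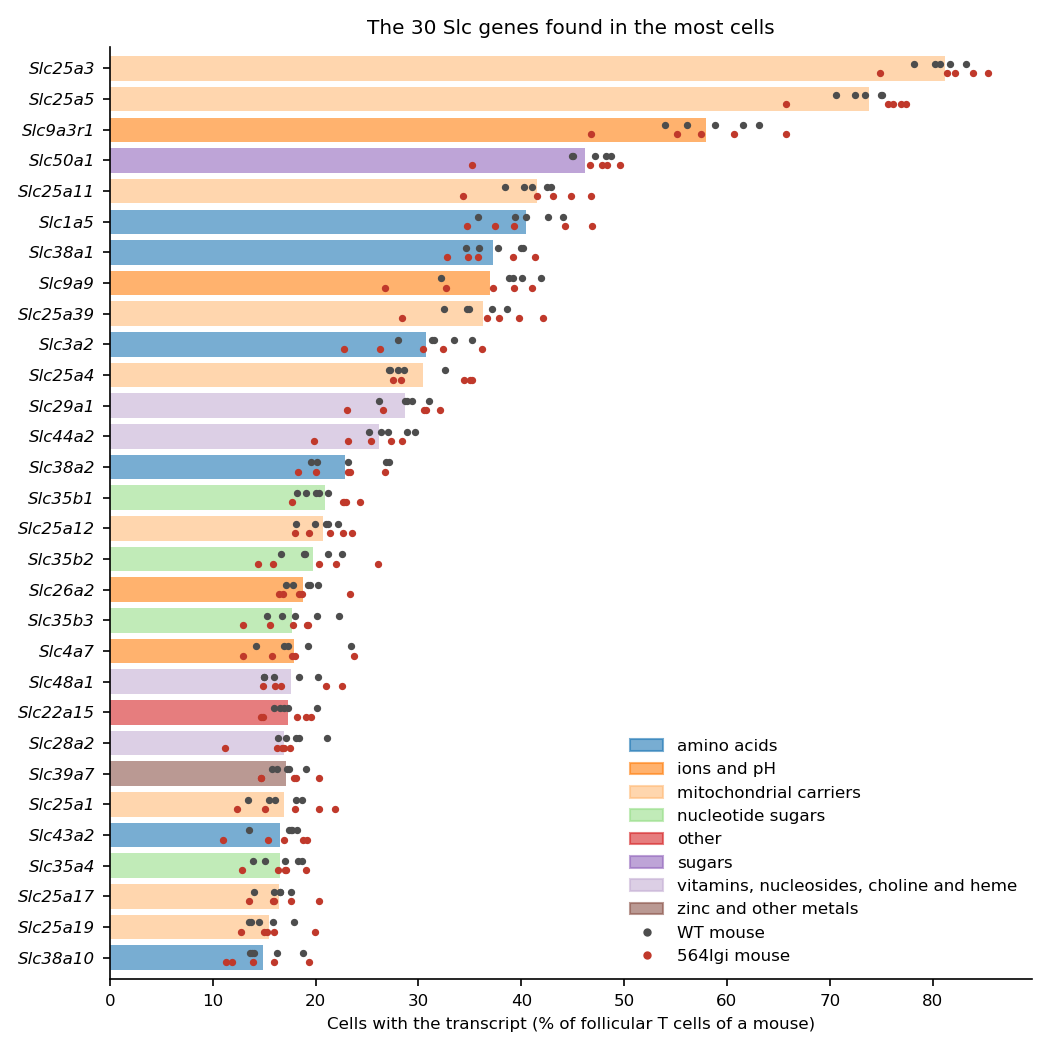
Share of cells (x axis, %) in which each of the 30 most widely found Slc genes (y axis) was found, with bars at the mean over 10 mice colored by the role of the family and a point for each WT (grey) and 564Igi (red) mouse. *Slc25a3* and *Slc25a5* lie above all others, and the points of the conditions overlap for every gene shown.

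The level of most members found in 10% or more of cells was alike from mouse to mouse. For the 45 members found in 10% or more of cells, the coefficient of variation over 10 mice of the mean count per 10000 had a median of 12.3%, next to 11.4% for all 4951 genes found as widely. It was lowest for *Slc25a3* (3.46%) and *Slc38a1* (5.05%). It was highest among these 45 for *Slc16a3* (39.2%) and *Slc2a1* (36.1%). On this scale both genes had their highest level in mouse 14 and their lowest in mouse 11, which are WT. Members found in fewer cells reached 50.8% (*Slc28a2b*) and 46.9% (*Slc7a10*). *Slc16a3* was found in 6.40%, 7.66%, 20.7%, 10.4% and 9.93% of cells of WT mice 11, 12, 14, 23 and 36, and in 13.7%, 14.2%, 12.8%, 8.39% and 15.5% of cells of 564Igi mice 13, 17, 21, 24 and 34. *Slc2a1* was found in 7.91%, 7.55%, 20.3%, 13.4% and 8.78% of cells of the same WT mice, and in 11.1%, 14.4%, 12.9%, 10.8% and 9.405% of cells of the same 564Igi mice. By share of cells mouse 14 again stood above every other mouse for both genes, and mouse 12 was the lowest for *Slc2a1*. Without mouse 14 the WT mean changed from 11.02% to 8.59 ± 1.88% for *Slc16a3* and from 11.6% to 9.41 ± 2.72% for *Slc2a1* (SD, n = 4).

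TFR cells held more *Slc7a10*, *Slc16a3*, *Slc3a2* and *Slc26a2* than activated TFH cells in 10 of 10 mice. Because the clusters were drawn from these same values, differences between clusters are descriptions and were not tested, and all 5 clusters were set against the same activated cells. The level used is the mean over a mouse's cells of log2(corrected count + 1), and a member was counted when its level differed in the same direction in every mouse with a mean difference over 0.1. By this rule 4 of 165 members were higher in TFR cells, while 2.17% of the 9959 genes tested were, and 0 were lower, against 1.97% of all genes. By this rule the members' share was thus close to that of all genes in the higher direction, and no member met it in the lower.

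*Slc7a10*, an exchanger of small neutral amino acids that pairs with CD98, was found in 11.2% to 27.3% of the TFR cells of a mouse with a median of 18.5%, and in 0.949% to 5.96% of activated cells with a median of 3.31%. The lowest TFR value lay above the highest activated value. The level was 0.20 ± 0.06 higher (log2, SD, n = 10), and its mean count per 10000 was 6.64-fold that of activated cells. An antisense neighbour, *Lrp3*, overlaps 237 bases of the gene, and it was found in 0.0666% of TFR and 0.0284% of activated cells. *Slc16a3* was found in 11.1% to 31.9% of TFR cells (median 19.1%) and 2.16% to 13.4% of activated cells (median 6.74%). Those ranges overlapped between mice, and within each mouse TFR cells were higher, by 0.16 ± 0.05 on the log2 scale and 3.54-fold in counts.

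*Slc3a2* was found in 29.8% to 42.2% of TFR cells (median 36.2%) and 20.3% to 31.5% of activated cells (median 27.6%). Its difference was 0.13 ± 0.03 (log2), or 1.497-fold in counts. *Slc26a2*, a sulfate carrier, was found in 21.6% to 27.6% of TFR cells and 12.5% to 18.6% of activated cells, and the ranges did not overlap. Within the TFR cluster, cells in which *Foxp3* was found also held the 4 transcripts more often than cells in which it was not. The shares were 22.3 ± 7.66% and 14.8 ± 5.54% for *Slc16a3* and 21.2 ± 5.33% and 14.7 ± 4.78% for *Slc7a10*, each in 10 of 10 mice. For *Slc3a2* they were 38.05 ± 4.14% and 33.9 ± 4.04% (9 of 10 mice), and for *Slc26a2* 24.6 ± 2.21% and 22.5 ± 2.44% (8 of 10). Cells with *Foxp3* also had more UMIs, with a median of 3564.5 against 3330, and the part of depth in these differences was not tested.

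Members found in fewer cells were also described by fold, taking those whose count per 10000 differed in the same direction in every mouse and by over 1.5-fold on average. This rule was added after the values had been seen, and gave 15 members higher in TFR cells (9.09% of members, 5.39% of all genes) and 4 lower (2.42% and 2.95%). The higher ones held the glucose carrier *Slc2a3* (3.83-fold, 6.44 ± 1.36% against 1.74 ± 0.69% of cells), *Slc24a3*, an exchanger of sodium for calcium and potassium (3.14-fold), *Slc16a6* of the monocarboxylate family (2.90-fold) and the urea carrier *Slc14a1* (2.36-fold). They also held carriers of vitamins, namely *Slc52a3* for riboflavin (2.05-fold) and *Slc19a1* for folate (1.598-fold). The lower ones were *Slc26a11*, a sulfate carrier, found in 5.75 ± 1.32% of TFR and 13.95 ± 3.76% of activated cells, the mitochondrial carriers *Slc25a24* and *Slc25a42*, and the phosphate carrier *Slc20a1*. Their counts were 2.60-fold, 1.98-fold, 1.82-fold and 1.70-fold lower. GLUT1, in contrast, differed little, with a mean share for *Slc2a1* of 10.9% in activated and 12.6% in TFR cells and a log2 difference of 0.02 ± 0.02 (SD, n = 10).

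**Figure D2:**
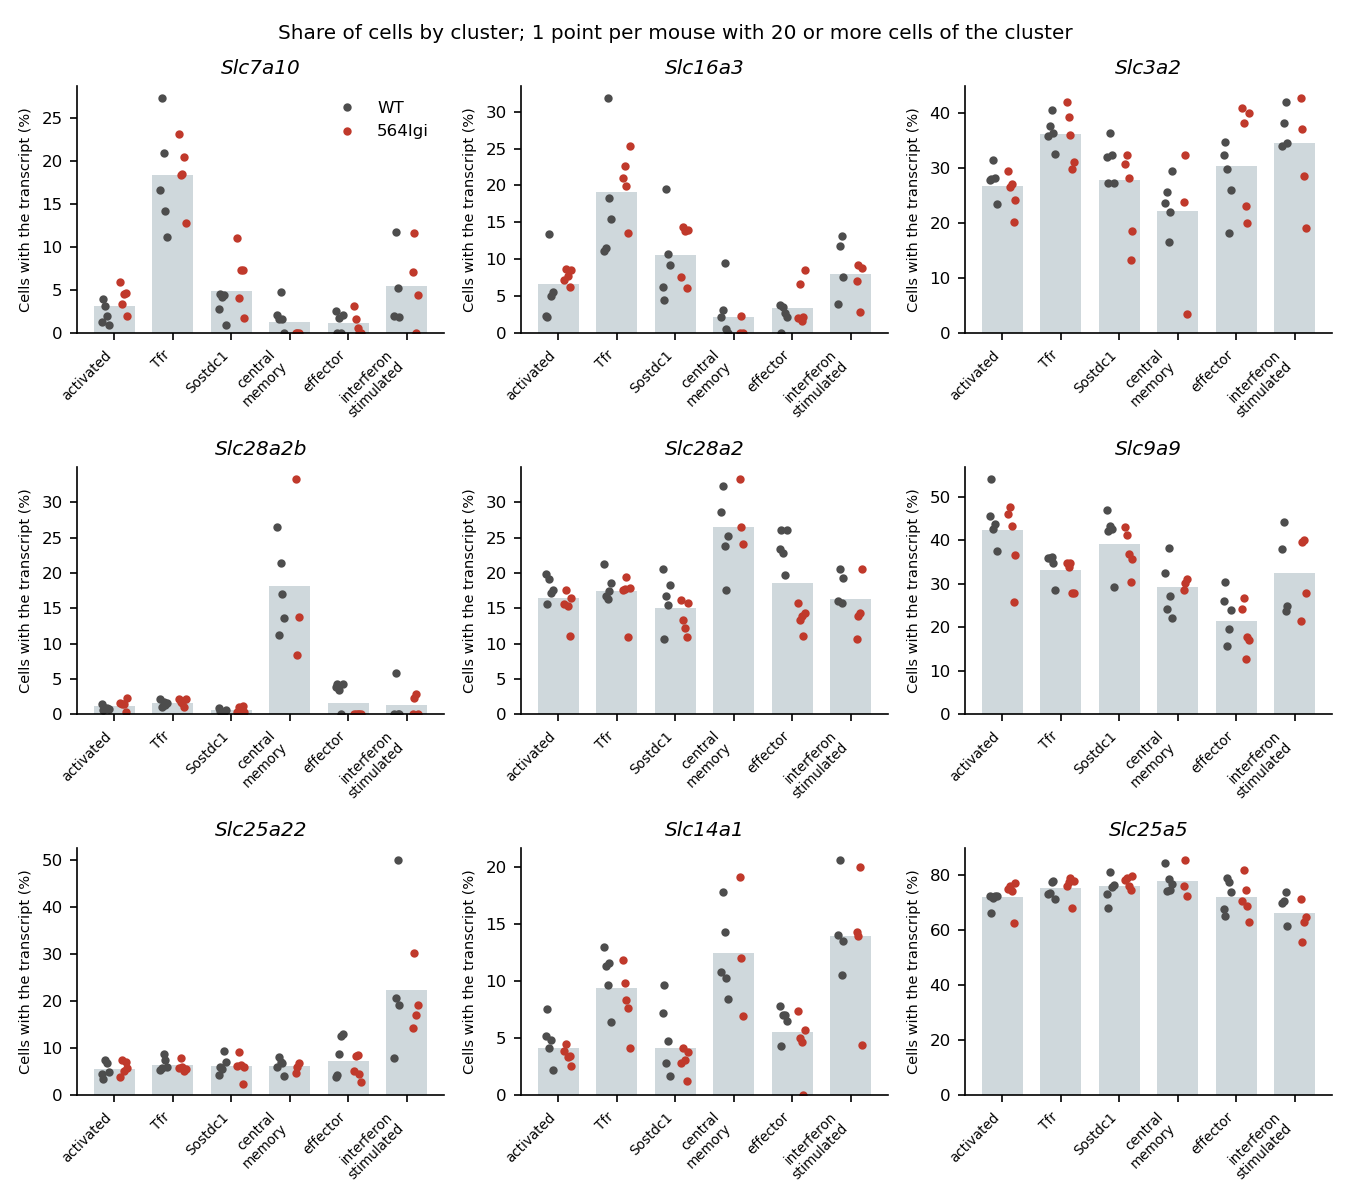
Share of cells (y axis, %) with each of 9 Slc transcripts in the 6 clusters (x axis), with bars at the mean over mice and a point for each WT (grey) and 564Igi (red) mouse with 20 or more cells of the cluster. *Slc7a10* and *Slc16a3* are highest in TFR cells, *Slc28a2b* in central memory cells and *Slc25a22* in interferon stimulated cells, and *Slc9a9* is lowest in effector cells.

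In Sostdc1 TFH cells 0 members were higher by the 0.1 rule (1.51% of all genes) and 1 was lower (0.833% of all genes). The member lower was *Slc9a3r1*, found in 49.9 ± 6.62% of Sostdc1 cells and 57.4 ± 5.86% of activated cells, with a log2 difference of -0.15 ± 0.05 and a lower level in 10 of 10 mice. By fold, 3 members were higher, or 1.82% against 0.964% of all genes, and each carries amino acids or a sugar phosphate. *Slc1a4*, a carrier of alanine, serine and cysteine, was found in 9.13 ± 3.22% against 3.13 ± 1.70% of cells (2.94-fold). *Slc16a10*, for aromatic amino acids, was 2.01-fold higher, and *Slc37a2*, a carrier of glucose phosphate, 1.91-fold. The 1 member lower by fold (1.37% of all genes) was *Slc16a6* (2.25-fold).

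Central memory TFH cells, read in the 8 mice with at least 20 of them, held the purine nucleoside carriers *Slc28a2* and *Slc28a2b* at higher levels than activated cells. By the 0.1 rule 4 members were higher and 1 lower, fewer in proportion than the 4.71% and 4.34% of all genes. *Slc28a2b* was found in 8.43% to 33.3% of central memory cells with a median of 15.4%, and in 0.360% to 2.25% of activated cells with a median of 1.18%. The ranges lay apart, the log2 difference was 0.23 ± 0.14 (SD, n = 8), and the mean count per 10000 was 26.7-fold higher. In TFR, Sostdc1, effector and interferon stimulated cells its mean share stayed between 0.563% and 1.66%. Its near-identical neighbour *Slc28a2* was found in 17.6% to 33.3% of central memory cells and 11.2% to 19.9% of activated cells, a difference of 0.11 ± 0.06 or 1.65-fold. The pair thus differed in pattern, *Slc28a2* being found in 15.04% to 26.4% of cells of every cluster on average.

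The others that were higher in central memory cells were *Slc25a5* (0.18 ± 0.07) and *Slc9a3r1* (0.22 ± 0.12). The glutamine carrier *Slc1a5* was lower, at 31.3 ± 7.28% against 40.4 ± 5.00% of cells and a log2 difference of -0.13 ± 0.07. By fold, 6 members were higher (4.99% of all genes, 3.64% of members) and 14 lower (8.37% of all genes, 8.48% of members). The lower group held the zinc carriers *Slc39a4*, *Slc39a6*, *Slc39a11* and *Slc39a13*, with shares of 2.48%, 6.59%, 2.78% and 4.46% against 7.35%, 11.3%, 5.88% and 7.93% in activated cells. The other members of family 39, such as *Slc39a7* and *Slc39a10*, met the fold rule in neither direction. *Slc22a15* was in the lower group too, at 5.43 ± 5.33% against 16.4% of cells, although 1 mouse was higher in central memory cells on the log2 scale, as was 1 mouse for *Slc39a6*. The CD98 partner *Slc7a5* was among the higher ones (2.26-fold, 6.48 ± 2.08% of cells).

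Effector TFH cells held less *Slc9a9* than activated cells in 10 of 10 mice, and it was the 1 member that met the rule in the lower direction (2.33% of all genes), with 0 in the higher (1.54%). It was found in 12.7% to 30.4% of effector cells with a median of 21.8%, and in 25.7% to 54.1% of activated cells with a median of 43.5%. The difference was -0.29 ± 0.08 on the log2 scale, or 2.47-fold lower counts. By fold, 2 members were higher (1.21%, against 1.68% of all genes) and 7 lower (4.24% and 4.1%), and *Slc16a6* reached the largest rise in mean count, 3.92-fold with 8.18 ± 4.60% of cells. Members of the lower group such as *Slc1a4* and *Slc30a1* were found in under 1% of effector cells, and no fold is given for them.

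Interferon stimulated TFH cells, read in 8 mice, held more *Slc25a22* and *Slc14a1* and less *Slc25a5* and *Slc29a1* than activated cells. These 2 higher and 2 lower members compare with 2.67% and 1.17% of all genes. *Slc25a22*, a mitochondrial glutamate carrier, was found in 8% to 50% of interferon stimulated cells with a median of 19.2%, and in 3.42% to 7.61% of activated cells with a median of 5.46%. The highest share came from mouse 23, and without it the mean changed from 22.3 ± 12.8% to 18.4 ± 6.74% (SD, n = 7). The log2 difference was 0.18 ± 0.14 and the count 4.07-fold higher. *Slc14a1* was found in 4.41% to 20.6% of interferon stimulated cells against 2.25% to 7.52% of activated cells (0.10 ± 0.05). By fold *Slc14a1* was also higher in TFR and in central memory cells. *Foxp3* was found in 26.3% of interferon stimulated cells, and the part of *Foxp3*-expressing cells in these differences was not tested. *Slc29a1*, an equilibrative nucleoside carrier, was found in 25.2 ± 2.87% against 30.3 ± 3.51%, and *Slc25a5* in 66.3 ± 6.09% against 72.0 ± 4.55%. By fold, 2 members were higher (2.55% of all genes) and 3 lower (2.06% of all genes). Of the lower ones *Slc35g1* was found in 0 of 379 cells, which for counting error only allows up to 0.792% of cells with a UMI of the gene and sets no limit on cells that express it.

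Cells of the clusters differed little in depth, with median UMIs per cell of 3461 in TFR to 4027 in central memory cells, and the deposited counts had been brought to a common depth. When each cell was thinned further to 2804 corrected counts, *Slc7a10* was found in 15.4 ± 4.39% of TFR and 2.63 ± 1.36% of activated cells. The thinned shares were 15.7% and 5.27% for *Slc16a3*, 15.7% of central memory and 0.930% of activated cells for *Slc28a2b*, and 17.4% of effector and 35.8% of activated cells for *Slc9a9*. Each of these 4 differences had the same direction as before thinning. Median corrected counts per cell were already alike, from 3495 in TFR to 3753 in central memory cells. Thinning could therefore hardly have reversed differences of this size, and the part of depth in them was not tested. Differences of any size that had 1 direction in every mouse (also added after the values had been seen) were more numerous. In TFR cells 29 members were higher (17.6% of members, 12.8% of all genes) and 13 lower (7.88% and 7.33%). In Sostdc1 cells 11 were higher (6.67% and 5.24%) and 4 lower (2.42% and 2.76%). In central memory cells 9 were higher (5.45% and 9.04%) and 13 lower (7.88% and 9.24%). In effector cells 2 were higher (1.21% and 2.29%) and 8 lower (4.85% and 4.91%). In interferon stimulated cells 2 were higher (1.21% and 3.4%) and 4 lower (2.42% and 3.28%).

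**Figure D3:**
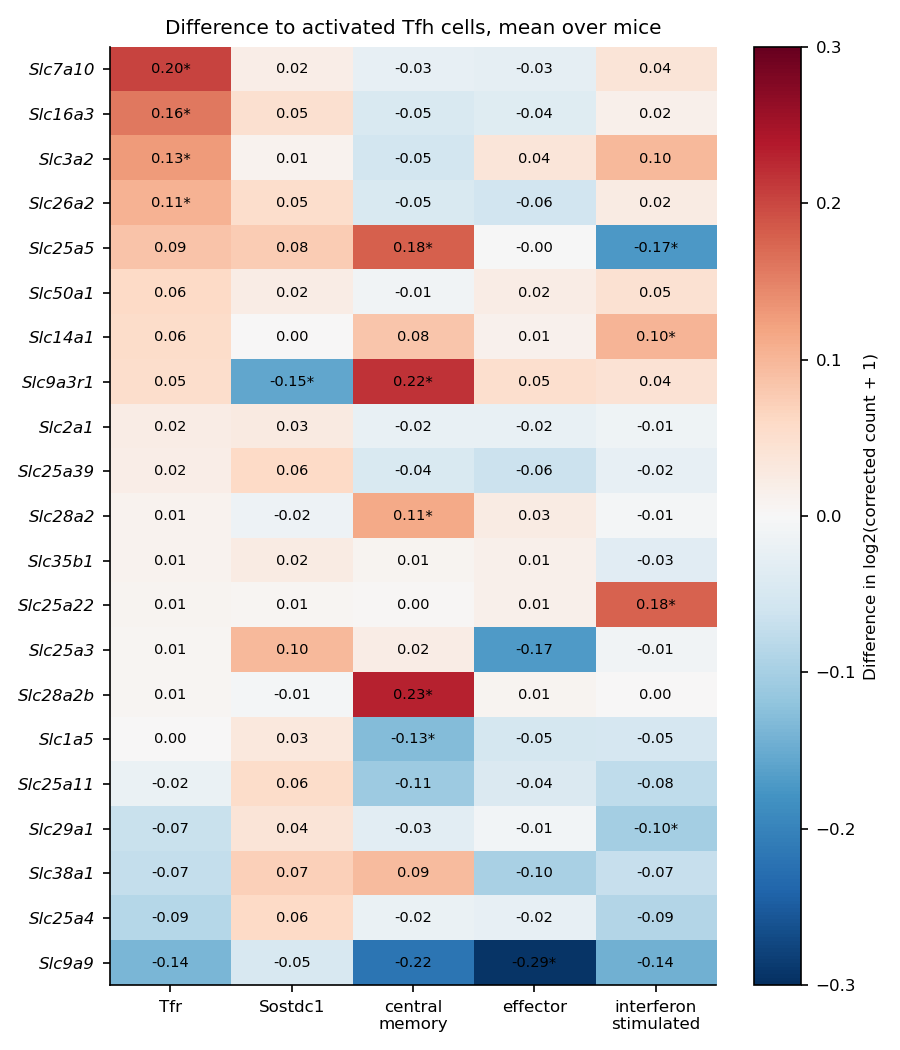
Mean difference to activated TFH cells in log2(corrected count + 1), by color and number, of 21 Slc genes (rows) in 5 clusters (columns), over 10 mice, or 8 for central memory and interferon stimulated cells. Asterisks mark differences over 0.1 with the same direction in every mouse, of which *Slc9a9* in effector cells is the largest in size.

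The comparison of 564Igi with WT chimeras asked which carriers differ between follicular T cells of autoreactive and of immunized chimeras, which differed in marrow, antigen and schedule together. Over all follicular T cells 0 of 165 members were called by limma, which asked for an adjusted p under 0.01 together with a log2 fold change beyond 0.2 in size, where 0.01% of all 9959 genes were. At an unadjusted p below 0.05, limma gave 5 members (3.03%) and 3.19% of all genes. The mice of the conditions did not overlap for 0 members, and 0.452% of all genes. The members' median fold change was -0.0025 and that of all genes -0.0018, with 52 members higher in 564Igi and 113 lower. The estimates ran from -0.046 to 0.051, and the 95% interval lay within 0.2 of zero for all 165 members and within 0.1 for 160. Here and below, log2 fold changes between conditions are differences of level, which stay small for genes found in few cells. *Mt1*, which is not a member, rose from 0.015 to 0.066 between WT and 564Igi mice, and the difference still lay below 0.2. For members with such low levels, an interval within 0.2 of zero therefore does not exclude a large fold change in counts.

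The members at an unadjusted p below 0.05 each moved by under 0.02 on the log2 scale. *Slc43a1*, a carrier of branched-chain amino acids, had a mean level of 0.048 in 564Igi and 0.034 in WT chimeras (limma adjusted p = 0.9997). The other 4 were lower in 564Igi, namely *Slc43a3*, *Slc25a40*, *Slc35d1* and the glucose carrier *Slc2a3*, with differences of -0.0078, -0.014, -0.0090 and -0.010. *Slc25a4*, an exchanger of ADP and ATP, was found in 28.6%, 27.2%, 27.1%, 32.6% and 28.01% of cells of WT mice 11, 12, 14, 23 and 36 and in 34.99%, 27.5%, 34.4%, 35.2% and 28.4% of cells of 564Igi mice 13, 17, 21, 24 and 34. Of the 564Igi mice 3 stood above every WT mouse, and the groups overlapped (log2 fold change 0.05, SE 0.025, limma adjusted p = 0.9997, exact permutation p of the share = 0.087). *Slc9a9* went the other way, from 38.4 ± 3.67% to 35.4 ± 5.74%, with a log2 fold change of -0.05 and an exact permutation p of 0.333. Of the 21 genes shown in the plot of intervals, *Slc28a2* had the lowest exact permutation p for its share of cells, 0.0714 (two-sided, adjusted p = 0.667 over 21), and the smallest p that 5 against 5 mice allow is 0.00794.

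**Figure D4:**
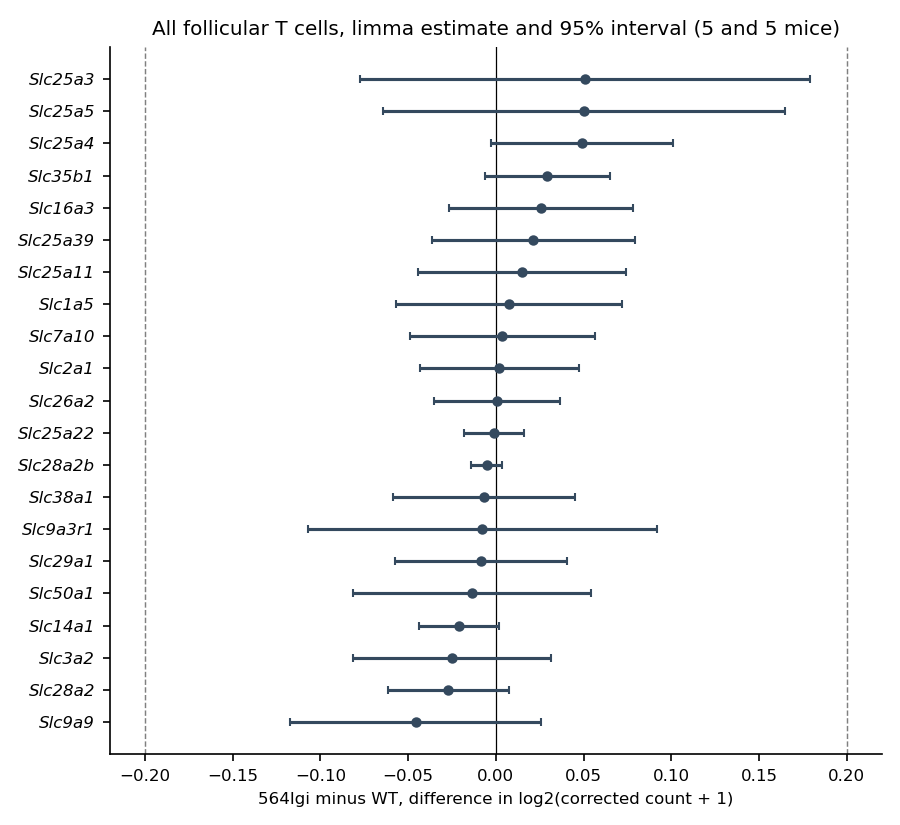
Difference between 564Igi and WT chimeras (x axis, log2 scale) for 21 Slc genes (y axis) over all follicular T cells, with points at the limma estimate and bars at its 95% interval (5 and 5 mice). All intervals lie between the dashed lines at -0.2 and 0.2.

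The 4 carriers that were higher in TFR cells were not called between conditions within that cluster. In TFR cells the log2 fold change was 0.0036 for *Slc7a10* (95% interval -0.067 to 0.074), 0.04 for *Slc16a3* (-0.039 to 0.12), -0.0066 for *Slc3a2* (-0.067 to 0.054) and 0.000245 for *Slc26a2* (-0.040 to 0.040). Among TFR cells 0 members were called by limma (0.02% of all genes), and 1 of 164 tested, *Slc35f5*, had an unadjusted p below 0.05 (3.5% of all genes). The conditions did not overlap for 0 members in TFR cells (0.71% of all genes), and the intervals lay within 0.2 of zero for all 164. In activated cells 0 of 163 were called (0.0101% of all genes), 7 had an unadjusted p below 0.05 (3.99%), and 0 did not overlap (0.385%). These included *Slc7a10*, at 0.049 in 564Igi and 0.027 in WT chimeras (limma adjusted p = 0.9997). When each mouse's TFR minus activated value was compared between conditions, 0 of 160 members were called (0 of 9582 genes), and 6 had an unadjusted p below 0.05, against 7.32% of all genes. The mice of the conditions did not overlap for 1 member, *Slc2a6* (1.2% of all genes). The lowest adjusted p was that of *Slc9a3r1*, with a TFR minus activated value of 0.01 in WT and 0.09 in 564Igi (limma adjusted p = 0.624).

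Within Sostdc1 TFH cells 0 of 157 members were called (0.0202% of all genes), 9 had an unadjusted p below 0.05 by limma (4.6% of all genes), and 4 did not overlap between conditions (0.84% of all genes). These 4 were *Slc43a1*, *Slc25a3*, *Slc16a6* and *Slc25a35*. *Slc43a1* was found in 2.39%, 1.52%, 1.40%, 3.47% and 1.74% of Sostdc1 cells of WT mice 11, 12, 14, 23 and 36 and in 3.70%, 7.22%, 4.91%, 3.66% and 5.52% of those of 564Igi mice 13, 17, 21, 24 and 34. The lowest 564Igi share exceeded the highest WT share, the log2 fold change was 0.03 (SE 0.0083), and the limma adjusted p was 0.514. These shares came from 143 to 518 WT and 82 to 448 564Igi Sostdc1 cells per mouse. The lowest 564Igi share was that of mouse 24, which had the 82 cells, so the gap between the groups rests on few cells. *Slc25a3* had levels of 1.36, 1.28, 1.32, 1.42 and 1.40 (log2) in the same WT mice and 1.498, 1.51, 1.47, 1.52 and 1.56 in the same 564Igi mice. Its groups lay apart too, with a log2 fold change of 0.16 (95% interval -0.0020 to 0.32) and a limma adjusted p of 0.9997.

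Within effector TFH cells 0 of 152 members were called (0.0104% of all genes), 6 had an unadjusted p below 0.05 by limma (5.22%), and *Slc28a2* alone among the members did not overlap (0.882% of all genes). It was found in 23.4%, 26.1%, 22.8%, 19.7% and 26.1% of effector cells of WT mice 11, 12, 14, 23 and 36, and in 15.8%, 13.3%, 13.9%, 11.1% and 14.3% of those of 564Igi mice 13, 17, 21, 24 and 34. The WT values all lay above the 564Igi values, from 23 to 77 WT and 35 to 173 564Igi cells per mouse. The log2 fold change was -0.11 (SE 0.037, 95% interval -0.18 to -0.033), with a limma adjusted p of 0.788. Choline transporter-like *Slc44a2* (0.28 in WT and 0.17 in 564Igi) and the vitamin C carrier *Slc23a2* (0.026 and 0.079) overlapped between conditions, both with a limma adjusted p of 0.945.

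In central memory cells (5 WT and 3 564Igi mice) 0 of 158 members were called (0% of all genes), 8 had an unadjusted p below 0.05 by limma (7.57%) and 4 did not overlap (4.77%). These 4 were *Slc26a11*, *Slc30a7*, *Slc35c2* and *Slc25a3*, the last with a level of 1.29 in WT and 1.45 in 564Igi (95% interval of the difference -0.070 to 0.39, limma adjusted p = 0.788). In interferon stimulated cells (4 and 4 mice) 0 of 147 were called (0.0106% of all genes), 8 had an unadjusted p below 0.05 (4.2%) and 1, *Slc35e2*, did not overlap (2.36%). Its level was 0.079 in WT and 0.016 in 564Igi (limma adjusted p = 0.998). The intervals of these small clusters were wide, and lay within 0.1 of zero for 112 of 158 and 96 of 147 members.

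**Figure D5:**
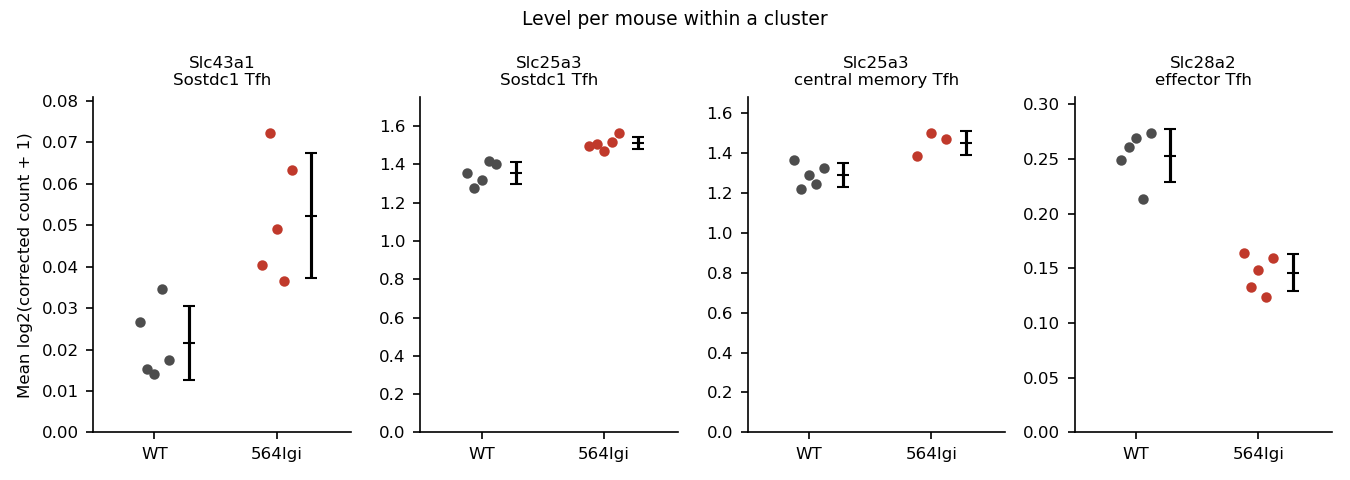
Level per mouse, as mean log2(corrected count + 1) (y axis), of Slc genes whose WT (grey) and 564Igi (red) mice did not overlap within a cluster, with bars at the mean ± SD beside the points. *Slc43a1* and *Slc25a3* are higher and *Slc28a2* is lower in 564Igi mice, with limma adjusted p values of 0.514, 0.9997, 0.788 and 0.788 from left to right.

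Genes that assist carriers or respond to their substrates were read from a list of 32, of which 27 were tested. By limma 0 were called between conditions (0.01% of all genes) and 2 had an unadjusted p below 0.05 (3.19% of all genes). *Mt1*, a zinc-binding metallothionein, had a level of 0.066 in 564Igi and 0.015 in WT chimeras (limma adjusted p = 0.000548), and its log2 fold change of 0.05 lay below the limit of 0.2. *Sesn1*, a leucine sensor, had a level of 0.11 in 564Igi and 0.15 in WT (limma adjusted p = 0.900). In TFR cells 5 of the 27 were higher than in activated cells by the 0.1 rule (2.17% of all genes) and 0 were lower (1.97%). They included *Bsg* and *Emb*, whose products bring Slc16 carriers to the surface (0.11 each, in 10 of 10 mice), as well as *Sesn1* (0.11) and the ferritin genes *Fth1* (0.29) and *Ftl1* (0.14). Among 32 tested genes of other membrane transport, 0 were called between conditions by limma (0.01% of all genes) and 1, *Abcb1a*, had an unadjusted p below 0.05 (3.19%). By the 0.1 rule 0 were higher in TFR cells (2.17%) and 2 were lower (1.97%), *Atp1b3* (-0.17) of the sodium pump and the potassium channel *Kcnn4* (-0.14).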

How the data were processed

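Cells were sorted, captured with a 10x 5′ kit and aligned to GRCm38 (mm10) with Cell Ranger 4.0.0 and processed in Seurat 3.1.4 by the authors, per the labels and the study's methods. Per the study's methods, cells with high S or G2/M phase scores, or outside set limits of genes, reads, mitochondrial or ribosomal content, were left out. The deposited expression values are natural logs of corrected UMI counts with 1 added. The authors ran the sctransform correction on each condition on its own, which can shift levels between conditions. All 388993216 values came out whole (tolerance 1e-06) once the log was undone. The cell table, as deposited by the authors, gives raw UMI counts per cell, the percent of mitochondrial UMIs, a heat shock score and the cluster. Corrected counts are not raw counts, so no count model was used. The text of the methods names no doublet removal, and no doublet caller was run. The table of receptor sequences was not used.

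Per mouse, log2(corrected count + 1) was averaged over cells. Mice with at least 20 cells of a cluster entered it. A gene was fitted where at least 1% of cells held it in a number of mice no less than that of the smaller condition. The fit was made with limma 3.58.1 (trend, R 4.3.3), with Benjamini-Hochberg adjustment over all genes, and checked on simulated data. Separate mice are the replicates. Single shares were compared by exact permutation over 252 assignments (two-sided). Differences between clusters were counted by rule. Alternatives changed the trend, filter, scale, thresholds, covariates, reference cells and mice. The genes named were those most widely found, those differing most between clusters or conditions, and those of families 2, 3, 7 and 16 found in 10% or more of cells. Others, chosen after their values were seen, are those met by fold, at an unadjusted p or without overlap. The members, lists and rules were chosen with earlier results of these data known. Promoters came from RefSeq (GRCm38.p6) and matched 125 members, and gene positions came from GENCODE vM21. Scripts ran in Python 3.11.15 (pandas 2.3.3, numpy 2.4.6), and matplotlib 3.10.9 drew the plots. Depth per mouse was 3424280 to 15241983 UMIs.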

Additional observations from a re-analysis of the deposited data

Results flagged for a closer look

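Over all cells, 42 groups of 5 mice (21 Slc genes in 2 conditions) were searched for a mouse that stood far from the other 4 of its condition. In 6 groups such a mouse was found, where chance alone gives about 1 in 20 independent groups. The groups reuse the same mice and are not independent, so the 6 cannot be set against that rate. *Slc16a3* had a level of 0.248 (log2) in WT mouse 14, against 0.0719 to 0.121 in the other WT mice. *Slc25a4* had a level of 0.37 in WT mouse 23, against 0.299 to 0.315. *Slc28a2b* stood highest in WT mouse 11, at 0.0427. That mouse also had the most central memory cells, 185, the cluster in which this gene was found most often. In 564Igi mouse 24, which had the fewest cells and the lowest median of UMIs per cell (2728), *Slc28a2* (0.116), *Slc35b1* (0.185) and *Slc50a1* (0.41) stood lowest. The part of depth in the values of mouse 24 was not tested.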

How the results depend on the processing

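No Slc gene was called between conditions under any alternative run in any of the 8 comparisons. Depth limits the small clusters, where few cells stand behind a mouse's value. No paired analysis was possible because the replicate numbers of the conditions belong to different mice. Counts between clusters depended on the rule, in the order TFR, Sostdc1, central memory, effector and interferon stimulated. A difference over 0.2 gave 1 higher in TFR, 0 lower in Sostdc1, 2 higher and 0 lower in central memory, and 0 higher and 0 lower in interferon stimulated cells. With log2 of mean counts per 10000 plus 1, 14, 4, 8 and 1 were higher in the first 4, and 5 were lower in TFR, 14 in central memory, 7 in effector and 4 in interferon stimulated cells. Differences of any size (added after seeing the data) gave 29, 11, 9 and 2 higher in the first 4 and 13, 4, 13, 8 and 4 lower. Over 1.5-fold (also added) gave 15, 3 and 2 higher in TFR, Sostdc1 and effector cells, and 4, 14 and 7 lower in TFR, central memory and effector cells. Against all other cells, 1 was higher in Sostdc1 and 1 in interferon stimulated cells, and 4, 4 and 1 were lower in central memory, effector and interferon stimulated cells. With at least 50 cells per mouse, 3 were lower in central memory, 3 lower in effector and 1 higher in interferon stimulated cells, and without mice 34 and 36, 3 were lower in effector cells.

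Leaving out 1 mouse gave 0 to 1 lower in TFR (1 without mouse 24), 0 to 2 higher in Sostdc1 (2 without mouse 14, and 1 without mouse 11, 12, 13, 24 or 36), 1 to 3 lower in central memory (2 without mouse 17 and 3 without mouse 24), 1 to 2 lower in effector (2 without mouse 36), 1 to 2 higher in interferon stimulated (1 without mouse 14, 21 or 36) and 1 to 3 lower in interferon stimulated cells (1 without mouse 13 or 34). Fold changes between conditions near zero changed sign. Leaving out 1 mouse, they ran from -0.015 to 0.022 for *Slc1a5*, -0.00011 to 0.039 for *Slc25a11*, -0.0052 to 0.0036 for *Slc25a22*, -0.013 to 0.0067 for *Slc26a2*, -0.019 to 0.0091 for *Slc29a1*, -0.0097 to 0.027 for *Slc2a1*, -0.020 to 0.0046 for *Slc38a1*, -0.025 to 0.018 for *Slc50a1*, -0.013 to 0.031 for *Slc7a10* and -0.041 to 0.027 for *Slc9a3r1*. With log2 of mean counts per 10000 plus 1, *Slc1a5* was at -0.0044 and *Slc26a2* at -0.016. With sex as a covariate *Slc25a22* was at 0.0027, *Slc26a2* at -0.0022 and *Slc7a10* at -0.0045. With equal weight of 3 clusters *Slc26a2* was at -0.0041, *Slc28a2b* at 0.0027 and *Slc50a1* at 0.0023, and without mice 34 and 36 *Slc2a1* was at -6.1e-05. The cause was not tested.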
